A study of Mus musculus with 3 samples.

Results

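The genes of the Notch signalling pathway were described in total RNA of mouse blood monocytes. The 9 genes were listed by name, and no threshold on a measured value entered the list. They are the receptors Notch1, Notch2 and Notch4, the receptor-cutting proteases Adam10 and Adam17, the nuclear factors Rbpj and Maml1, the target gene Hes1 and the inhibitor Numb. All 9 were found among the 55536 genes that the deposited GENCODE M21 gene tables list, and all 9 passed the filter of a summed count of 10 or more. The series holds 3 libraries of 1 group, numbered as biological replicates 1, 2 and 3. The cells were peripheral blood monocytes of C57BL/6J mice, adults of 5 to 6 weeks, and the labels name no treatment, genetic change or time course. Sex was not recorded, and the 3 libraries carry the same donor record. The sources used here do not give the gate by which the monocytes were isolated. Since there is 1 group, the conversion of one monocyte subset into another was not measured, and gene levels were compared with 1 TPM, a constant, instead. Nothing states that the libraries came from separate animals, so the p-values rest on library-to-library spread that may be technical.

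Notch receptors are activated by Delta-like or Jagged ligands on a neighbouring cell. ADAM10 then cuts the receptor outside the membrane, gamma-secretase releases its intracellular part, and that part joins RBPJ and a Mastermind coactivator on DNA to switch on targets such as Hes1. In the mouse, Notch2 signalling started by the ligand Dll1 on endothelial cells is known to promote the conversion of Ly6C-high classical monocytes into Ly6C-low non-classical monocytes.

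The deposited expected counts summed to 27.2, 26.5 and 19.9 M in libraries 1, 2 and 3. Levels are given in TPM, a relative transcript abundance corrected for transcript length, for which the authors took all rows of a table together, also those of small RNAs. Protein-coding genes held 9.84% to 10.9% of that total, so 1 TPM here equals 9.16 to 10.2 TPM if only protein-coding genes are counted. All 10 general monocyte markers and all 10 non-classical monocyte markers, with Nr4a1, Cx3cr1 and Spn first on the non-classical list, were above 1 TPM. The general markers included Csf1r, the receptor for the monocyte growth factor, at 69.8, 52.4 and 86.6 TPM in libraries 1, 2 and 3. Of 8 classical monocyte markers, 5 were above 1 TPM, among them the Ly6C gene Ly6c2 and the chemokine receptor gene Ccr2. Vcan, on the same list, was called below 1 TPM at 0.02, 0.02 and 0.05 TPM (adjusted p = 0.00929, edgeR), and 2 were on neither side. The summed level of the 10 non-classical markers was 627, 541 and 572 TPM, and that of the 8 classical markers was 69.8, 61.8 and 114 TPM. The libraries also held RNA of other blood cells. The 8 natural killer (NK) cell markers, with Ncr1, Gzma and Prf1 first on the list, summed to 679, 572 and 1648 TPM, and all 8 were above 1 TPM. None of the 7 endothelial markers reached the filter, and 5 of them, Cdh5 and Tek among them, had 0 counts in all 3 libraries.

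Of the 9 Notch genes, 7 were above 1 TPM, none was below it, and 2 were on neither side (edgeR's quasi-likelihood test, two-sided, Benjamini-Hochberg adjusted over 17664 genes, threshold 0.05). The background for these counts is that 43.2% of all genes tested and 54.0% of protein-coding genes tested were called above 1 TPM, and 6.36% of all genes tested were called below. The 2 without a call were Maml1 and Notch4. At an unadjusted p under 0.05, 8 of the 9 would be above and 1, Notch4, below. The median of the 9 mean levels was 3.61 TPM, beside 2.09 TPM over the 12994 protein-coding genes tested. On the scale of protein-coding genes alone, 8 of the 9 were called above 1 TPM, with Notch4 again on neither side, beside 68.5% of all genes tested.

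**Figure D1:**
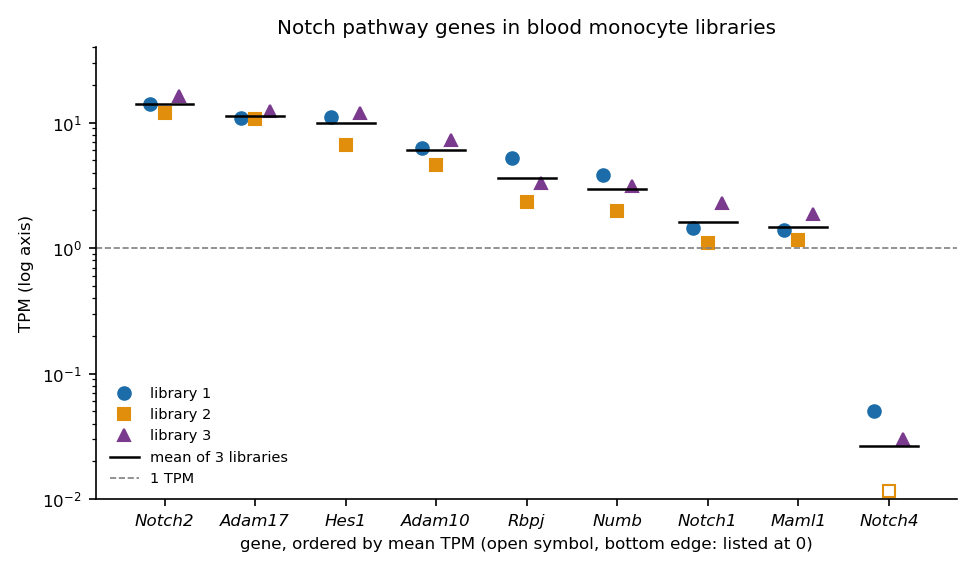
TPM of the 9 Notch genes in each library, on a log axis. Symbols are libraries 1 to 3, black bars the mean of the 3, and the dashed line 1 TPM. Notch2 is highest in every library and Notch4 lies below the dashed line in every library, with library 2 listed at 0 and drawn at the bottom edge.

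Notch2 (ENSMUSG00000027878.11, mm10 chr3:98013527-98150361, forward strand) encodes the receptor that the conversion of monocyte subsets is known to depend on. It stood at 14.2, 11.9 and 16.3 TPM in libraries 1, 2 and 3, from 15603, 14600 and 11744 expected counts. The level was of the same order in every library, with a mean of 14.1 ± 2.19 TPM (SD, n = 3). That mean exceeded those of 89.1% of protein-coding genes tested. The call above 1 TPM had an adjusted p of 9.83e-11 (edgeR). Within Notch2 lie 2 genes of provisional annotation on the same strand, Gm42819 and Gm42820. Gm42819 had 797, 580 and 1286 expected counts, and Gm42820 had 642, 728 and 597. How the reads of this locus were divided among the 3 genes was not tested.

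Notch1 (ENSMUSG00000026923.15, chr2:26457903-26516663, reverse strand) is the receptor best known from T cell development. It stood at 1.45, 1.09 and 2.29 TPM, from 1201, 1094 and 1386 expected counts, with a mean of 1.61 ± 0.616 TPM (SD, n = 3). Library 3 was the highest and library 2 was close to 1 TPM. The fitted level was above 1 TPM with an adjusted p of 0.0298 (edgeR), and the call was lost without library 1 (adjusted p = 0.0912) and without library 3 (adjusted p = 0.206). Notch2 exceeded Notch1 in each of the 3 libraries. The difference was 3.11 ± 0.29 on the log2(TPM + 0.1) scale (SD, n = 3), or 8.62-fold.

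Notch4 (ENSMUSG00000015468.14, chr17:34564268-34588503, forward strand) is known chiefly as a receptor of endothelial cells. It had 33, 0 and 15 expected counts, which gave 0.05 TPM in library 1, 0 in library 2 and 0.03 TPM in library 3. A count of 0 allows up to 3 counts, or 0.0178 TPM, in library 2. This limit covers counting error only, since reads that are PCR copies cannot be told from separate molecules. In library 2, 1 TPM of Notch4 stood for 168 counts, against 721 and 487 in libraries 1 and 3. That value entered both the limit and the test. The second deposited transcript table gave 9 estimated counts in library 2, beyond the 3 of this limit. The call below 1 TPM was just missed (adjusted p = 0.0517, edgeR), and the alternatives fell on both sides of the threshold. It was reached without library 2 (adjusted p = 0.0467), with DESeq2 (adjusted p = 0.0026) and with limma on log2(TPM + 0.1) (adjusted p = 3.91e-05), but not without library 1 (adjusted p = 0.186) or without library 3 (adjusted p = 0.190). Notch1 exceeded Notch4 by 3.71 ± 0.43 and Notch2 exceeded it by 6.82 ± 0.22 on the log2(TPM + 0.1) scale, which understates folds against values so near 0. With a pseudocount of 1 these differences were 1.32 and 3.87. The fourth receptor gene, Notch3, had 0 counts in all 3 libraries, which allows at most 0.0134 TPM.

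Adam17 (ENSMUSG00000052593.16, chr12:21323509-21373632, reverse strand) encodes the sheddase of tumour necrosis factor, which can also cut Notch receptors when no ligand is bound. It stood at 10.9, 10.6 and 12.3 TPM, with a mean of 11.3 ± 0.907 TPM (SD, n = 3). The coefficient of variation over libraries was 8.05%, the smallest of the 9 genes. Adam10 (ENSMUSG00000054693.14, chr9:70678997-70780229, forward strand), the protease of ligand-driven cleavage, stood at 6.27, 4.58 and 7.28 TPM, with a mean of 6.04 ± 1.36 TPM (SD, n = 3). Both were above 1 TPM (adjusted p = 5.23e-10 for Adam17 and 6.71e-08 for Adam10, edgeR). Adam10 was the lower of the pair in every library. The difference of Adam10 minus Adam17 was -0.91 ± 0.25 on the log2(TPM + 0.1) scale (SD, n = 3), so that Adam17 was 1.88-fold higher. Adam17 overlaps Iah1 on the opposite strand, which had 148, 163 and 172 expected counts.

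Rbpj (ENSMUSG00000039191.12, chr5:53466152-53657362, forward strand) encodes the DNA-binding factor through which all Notch receptors act. It stood at 5.22, 2.31 and 3.29 TPM, with a mean of 3.61 ± 1.48 TPM (SD, n = 3), and was above 1 TPM (adjusted p = 1.42e-05, edgeR). Library 1 was the highest, and the coefficient of variation of 41.1% was the largest among the 8 genes above 1 TPM on average. A processed copy of the gene, Rbpj-ps3, matches an Rbpj transcript at 99.7% identity over 1441 bases, so reads could have been divided between them. The deposited tables gave Rbpj-ps3 only 0.25, 0.16 and 0.95 TPM, and its level was highest in library 3.

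Maml1 (ENSMUSG00000050567.16, chr11:50255634-50292311, reverse strand) encodes a Mastermind coactivator of the RBPJ complex. It stood at 1.39, 1.16 and 1.88 TPM, from 744, 690 and 718 expected counts, with a mean of 1.48 ± 0.368 TPM (SD, n = 3). All 3 values lay above 1 TPM, but the test did not reach the threshold (adjusted p = 0.0604, edgeR). It passed with the M4 gene tables (adjusted p = 0.0473) and with TMM scaling (adjusted p = 0.0339), but not with DESeq2 (adjusted p = 0.0581), with limma (adjusted p = 0.181 and 0.221 at pseudocounts of 0.1 and 1) or with any library left out (adjusted p = 0.0614 to 0.233).

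Hes1 (ENSMUSG00000022528.8, chr16:30064384-30067796, forward strand) encodes a transcriptional repressor that is a classical direct target of Notch. It stood at 11.1, 6.68 and 11.95 TPM, from 1607, 1059 and 1143 expected counts, with a mean of 9.90 ± 2.82 TPM (SD, n = 3). Library 2 was the lowest, and libraries 1 and 3 were close to each other. The level was above 1 TPM (adjusted p = 1.06e-08, edgeR) and exceeded those of 83.8% of protein-coding genes tested. Hes1 is also known as a target of other pathways.

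Numb (ENSMUSG00000021224.15, chr12:83794034-83921934, reverse strand) encodes an endocytic adaptor that lowers Notch at the membrane. It stood at 3.79, 1.98 and 3.14 TPM, with a mean of 2.97 ± 0.917 TPM (SD, n = 3), and was above 1 TPM (adjusted p = 7.63e-05, edgeR). Its relative Numbl was called below 1 TPM, at 0.13, 0.23 and 0.22 TPM (adjusted p = 0.00433, edgeR).

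By mean TPM the order was Notch2, Adam17, Hes1, Adam10, Rbpj, Numb, Notch1, Maml1 and Notch4. In all, 12 pairs were compared, the 8 neighbouring pairs and 4 further pairs within a role, by an exact sign-flip test, two-sided, of the 3 libraries. The smallest p that this design allows is 0.25, or 0.3 after Benjamini-Hochberg adjustment over the 12 pairs, so no pair could pass 0.05. The difference exceeded its SD and kept its sign in all 3 libraries for 10 of the 12 pairs, each at that smallest p. It stayed within its SD for Adam17 minus Hes1, at 0.23 ± 0.38 on the log2(TPM + 0.1) scale (exact p = 0.5), and for Notch1 minus Maml1, at 0.08 ± 0.18 (exact p = 0.75). The neighbours Rbpj and Numb differed by 0.24 ± 0.2, only slightly more than the spread (SD, n = 3). The order was the same with the M4 gene tables, and without library 3 Maml1 stood before Notch1. In the second deposited M21 transcript table the order was Notch2, Hes1, Adam17, Notch1, Adam10, Rbpj, Numb, Maml1 and Notch4, so Notch1 stood before Adam10, Rbpj and Numb there.

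The other genes of the pathway, 64 by role, were measured in the same tables. Of these, 32 were above 1 TPM, 3 were below, 17 were on neither side and 12 had too few counts to be tested, beside the 43.2% above and 6.36% below of all genes tested. Among protein-coding genes tested the share above was 54.0%. On the scale of protein-coding genes alone, 44 of the 64 were called above 1 TPM and 0 below, beside 68.5% above of all genes tested. These shares are of genes tested, while 12 of the 64 were not tested. The counts in 64 are therefore not on the same basis, and no excess or lack is read from them. Among gamma-secretase subunits 5 of 7 were above 1 TPM, and the highest, Psenen, the small subunit needed for presenilin cleavage, stood at 14.1, 7.19 and 14.9 TPM. Aph1b, a scaffold subunit, was called below 1 TPM at 0.52, 0.61 and 0.37 TPM (adjusted p = 0.0382, edgeR). On the scale of protein-coding genes alone it stood at 4.76, 6.20 and 3.46 TPM. Aph1b has a close copy in the mouse, Aph1c, and reads may have been divided between them.

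Genes that add sugars to the receptor or process it were above 1 TPM in 4 of 6 cases. Lfng, the Lunatic fringe glycosyltransferase that changes which ligands a Notch receptor answers to, was the highest at 28.8, 27.8 and 48.3 TPM. Its mean of 35.0 ± 11.6 TPM (SD, n = 3) was above that of Notch2, and library 3 was the highest.

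Over protein-coding genes tested, 54.0% were called above 1 TPM. Corepressors that occupy RBPJ in the absence of Notch, or that work with HES proteins, were above it in 13 of 14 cases. The nuclear receptor corepressor gene Ncor1 was the highest of them at 30.6, 25.1 and 45.4 TPM. Among 6 coactivators 3 were above 1 TPM, with the histone acetyltransferase gene Ep300 the highest at 6.90, 5.86 and 12.6 TPM. Among 12 genes of receptor turnover and trafficking 6 were above and 2 below. Itch, a ubiquitin ligase that sends Notch to degradation, led at 18.9, 17.2 and 18.25 TPM and varied little between libraries. Dtx4, a Deltex ubiquitin ligase gene, was below 1 TPM at 0.27, 0.39 and 0.28 TPM (adjusted p = 0.00726, edgeR).

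Most ligand and further target genes had no call against 1 TPM on the scale of all rows. On that scale 54.0% of protein-coding genes tested were called above. Of the 7 ligand genes 0 were called above and 0 below, 4 were on neither side and 3 had too few counts to be tested. The highest was Jag1, at 1.09, 0.69 and 0.89 TPM, which lay on neither side of 1 TPM (adjusted p = 0.576, edgeR). On the scale of protein-coding genes alone Jag1 stood at 9.99, 7.01 and 8.32 TPM. Dll3 and Dlk1 had 0 counts in all 3 libraries, which allows at most 0.0331 TPM for Dll3 and 0.0216 TPM for Dlk1. Of 11 further target genes, 7 had too few counts to be tested, 3 were on neither side, 0 were below and 1 was above 1 TPM. That was Nrarp, which encodes a feedback inhibitor of Notch, at 2.34, 2.29 and 5.34 TPM (adjusted p = 8.51e-05, edgeR). The Hes1 relatives Hes2, Hes3 and Hes5 had 0 counts in every library, and the limits of a count of 0 were 0.0283 TPM for Hes2, 0.0326 TPM for Hes3 and 0.063 TPM for Hes5. Hes1 was thus detected at 6.68 TPM or more in every library, against 0 counts for Hes5, another well-known Notch target.

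**Figure D2:**
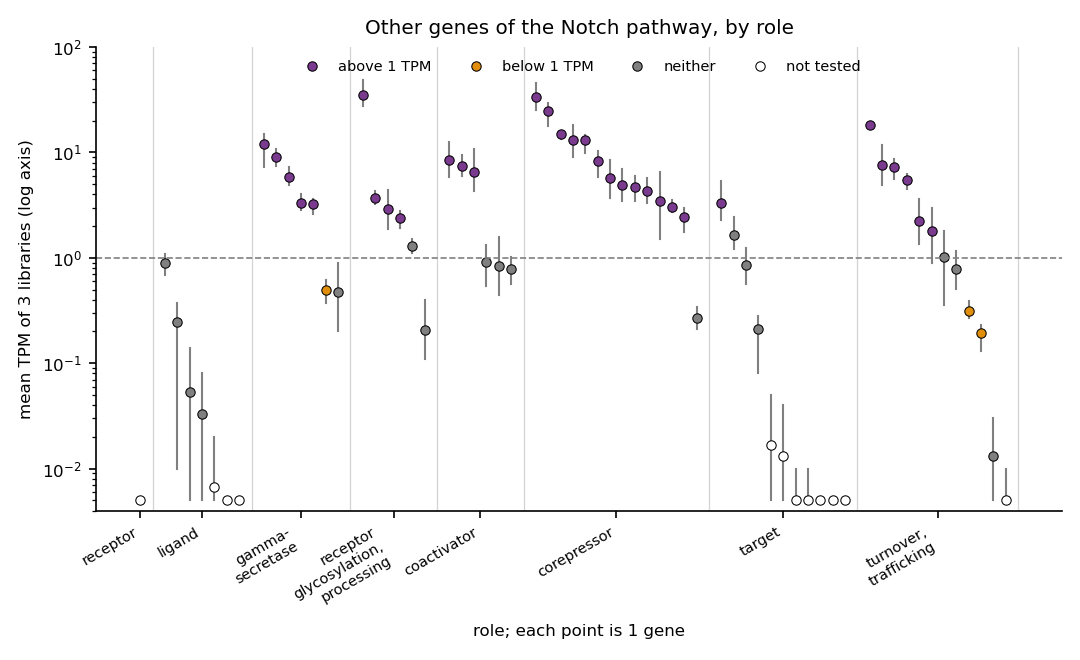
Mean TPM of 64 further Notch pathway genes by role, on a log axis, with the range over 3 libraries as a vertical line. Colours give the call against 1 TPM (dashed line), and values under the axis floor are drawn at its bottom edge. Of 14 corepressors 13 are called above 1 TPM and 1 is on neither side. Of 7 ligand genes 4 are on neither side and 3 were not tested. Over protein-coding genes tested, 54.0% were called above 1 TPM.

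The promoter windows of these genes, from 250 bases before to 50 after a RefSeq start (build GRCm38.p6), were searched on both strands for TGGGAA, the core of the RBPJ motif, which reads TTCCCA on the other strand. The table held 8 of the 9 Notch genes and 50 of the 64 others. The motif was found for 1 of those 8 and for 16 of those 50, and for 28.3% of the 27025 genes of the table. Shown here are stretches of the Rbpj, Lfng and Hes5 promoters, as the Notch gene with the motif, the highest gene of the receiving side and a target gene at 0 counts, with the motif in capitals.
Rbpj, chr5:53590182-53590301, forward strand: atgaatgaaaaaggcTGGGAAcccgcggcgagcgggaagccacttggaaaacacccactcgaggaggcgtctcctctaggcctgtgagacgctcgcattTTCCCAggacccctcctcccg
Lfng, chr5:140607191-140607253, forward strand: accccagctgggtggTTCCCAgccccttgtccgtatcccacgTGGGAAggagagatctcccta
Hes5, chr4:154960682-154960861, forward strand: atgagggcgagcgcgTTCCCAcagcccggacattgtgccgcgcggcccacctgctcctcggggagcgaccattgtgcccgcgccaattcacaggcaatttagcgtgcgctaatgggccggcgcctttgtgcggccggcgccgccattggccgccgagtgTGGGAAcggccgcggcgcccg
Each stretch held the motif at 2 places, which in Rbpj began 149 and 65 bases before the start, in Lfng 135 and 108 bases before it and in Hes5 226 and 82 bases before it. The motif thus stood in the window of a gene at 35.0 TPM on average and in that of a gene at 0 counts.

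Transcripts were compared as shares of a gene's TPM in the deposited M21 transcript tables. For Notch2 the full-length coding transcript held most of the TPM. Notch2-201 held 93.9%, 96.8% and 90.1% of the gene's TPM in libraries 1, 2 and 3, and the rest was Notch2-202, which retains an intron. Notch1-201, the full-length coding transcript of 9488 bases, held 63.4%, 80.7% and 74.8%, and the remainder was Notch1-205, a retained-intron transcript at the 5′ end of Notch1-201. Adam10-201 held 94.4% ± 4.94 (SD, n = 3) and Hes1-201 held 99.0% ± 1.69 of their genes. Adam17-201 held 73.0% ± 5.16 of its gene, with retained-intron transcripts at 21.1%, 17.2% and 22.3%. Rbpj was spread over more coding transcripts, of which Rbpj-202 held 48.0% ± 19.1 and Rbpj-203 held 24.6% ± 6.11 (SD, n = 3).

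The second deposited transcript table, made from the same reads, gave other shares for most of these genes. There Notch2-201 held 73.9% on average, Hes1-201 80.6%, Adam17-201 55.2% and Numb-204 38.6%, while Adam10-201 held 96.4%. Rbpj-202 held 0% in every library of that table, where Rbpj-208 was highest at 23.1%. The leading form of Rbpj was therefore not determined.

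Levels also stood on another scale in the second table. Protein-coding genes held 20.0%, 17.0% and 22.1% of its TPM in libraries 1, 2 and 3, against 10.9%, 9.84% and 10.7% in the gene tables, and the mean of Notch2 was 28.4 TPM, against 14.1 TPM. Notch1 moved by more than that. The gene stood at 6.58, 6.43 and 25.0 TPM in libraries 1, 2 and 3, against 1.45, 1.09 and 2.29 TPM in the gene tables. Besides the change of scale, much of the added TPM lay in 2 short noncoding transcripts, Notch1-211 of 184 bases and Notch1-208 of 157 bases. In library 3 Notch1-211 had 17 and Notch1-208 had 23 of the gene's 1856 estimated counts, yet they held 26.9% and 50.1% of its TPM. Their lengths are under 200 bases, the shortest fragment size recorded for any library, and their effective lengths in library 3 were only 48.1 and 34.9 bases. Notch1-201 itself stood at 1.82, 1.43 and 3.23 TPM in that table, against 0.92, 0.88 and 1.72 TPM in the first, from 1468, 1249 and 1582 estimated counts. The difference of Notch2 minus Notch1 was 1.44 on the log2(TPM + 0.1) scale in that table, against 3.11 in the gene tables. By counts the full-length transcript was the main form of Notch1 in both tables. For Notch4 the second table gave 36, 9 and 25 estimated counts, so that library 2, at 0 in the gene table, was not empty there.

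**Figure D3:**
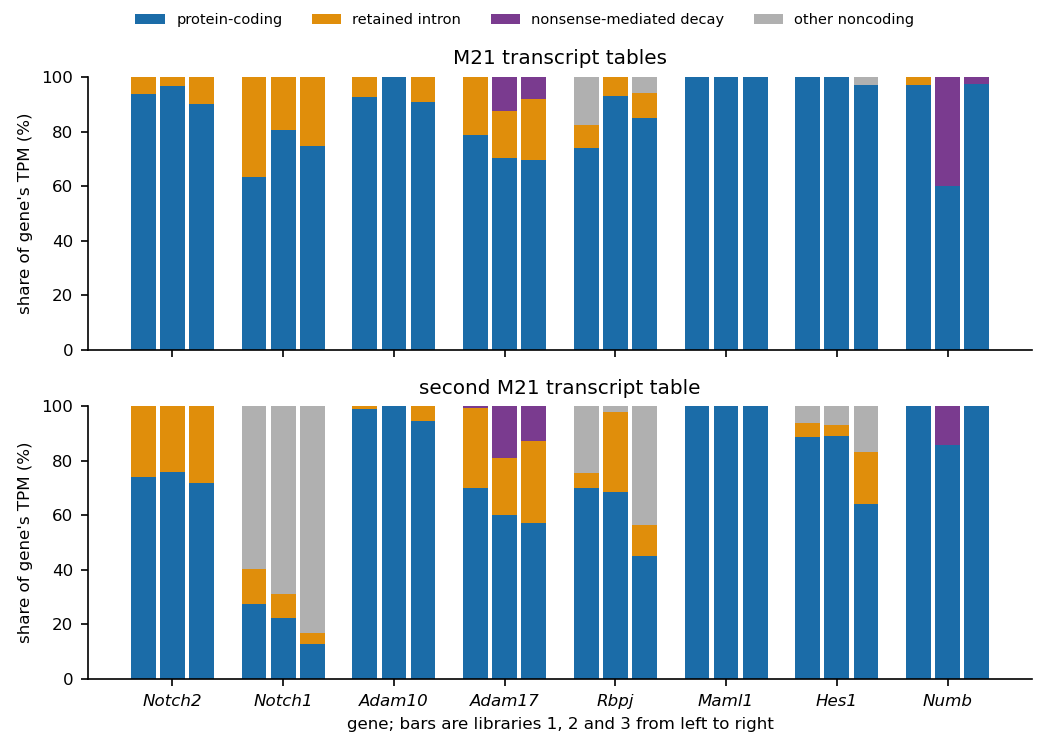
Share of each gene's TPM by transcript class, in the M21 transcript tables (top) and in the second M21 transcript table (bottom). Each gene has a bar for libraries 1, 2 and 3 from left to right. Notch2 is mostly protein-coding in both, with a lower share in the second table, while Notch1 is mostly short noncoding transcript in the second table only.

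The inclusion of exons that some transcripts hold and others skip was estimated from transcript TPM. This estimate varied widely between libraries for Maml1 and Numb. Reads across exon junctions were not examined, and the second transcript table gave other values. The 3 exons concerned are shown in capitals, in the strand of the gene, with 10 bases of the neighbouring exons on either side.
Maml1 exon of 97 bases, chr11:50260977-50261073, reverse strand: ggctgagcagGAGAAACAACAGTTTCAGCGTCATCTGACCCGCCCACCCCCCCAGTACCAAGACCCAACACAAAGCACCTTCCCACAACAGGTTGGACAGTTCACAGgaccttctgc
Numb exon of 147 bases, chr12:83797197-83797343, reverse strand: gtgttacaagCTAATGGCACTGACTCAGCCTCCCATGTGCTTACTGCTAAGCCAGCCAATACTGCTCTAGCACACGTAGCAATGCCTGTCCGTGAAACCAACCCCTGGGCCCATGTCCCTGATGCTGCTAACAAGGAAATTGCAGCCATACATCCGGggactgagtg
Numb exon of 33 bases, chr12:83825259-83825291, reverse strand: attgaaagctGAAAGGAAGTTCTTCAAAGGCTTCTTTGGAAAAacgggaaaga
The Numb exons keep the reading frame, adding 49 and 11 codons, and are known to distinguish the protein forms of NUMB. The 97 bases of the Maml1 exon are not a multiple of 3.

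Transcripts with the Maml1 exon held 2.88%, 19.7% and 46.8% of the TPM of transcripts with or without it in libraries 1, 2 and 3. The second table gave 2.35%, 26.3% and 90.3%. Library 1 was lowest and library 3 highest in both tables, and the mean of 23.1% had an SD of 22.2 (n = 3), nearly as large as itself. The skipping transcript, Maml1-202, is annotated as incomplete, and the libraries also differed in fragment size, whose part was not tested. The longest recorded fragments were 594, 491 and 1000 bp in libraries 1, 2 and 3.

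The 147-base exon of Numb was included in 0.971%, 42.0% and 3.45% of the TPM counted in the same way, and the second table gave 0.846%, 26.6% and 23.5%. Library 2 stood apart in the first table. There 313.93 of its expected counts went to Numb-203, a transcript annotated for nonsense-mediated decay, which had none in libraries 1 and 3. The 33-base exon was included in 18.6%, 0% and 2.55%, and the second table gave 23.8% and 22.6% in libraries 1 and 2 and almost none in library 3. The leading form in every library of the first table was Numb-204, which lacks both exons and held 53.8%, 55.1% and 71.3% of the gene's TPM. Mean inclusion was 15.5% ± 23.0 for the 147-base exon and 7.06% ± 10.1 for the 33-base exon (SD, n = 3) in the first table, and 17.0% ± 14.1 and 15.5% ± 13.4 in the second. The gene had only 616 to 846 expected counts per library.

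**Figure D4:**
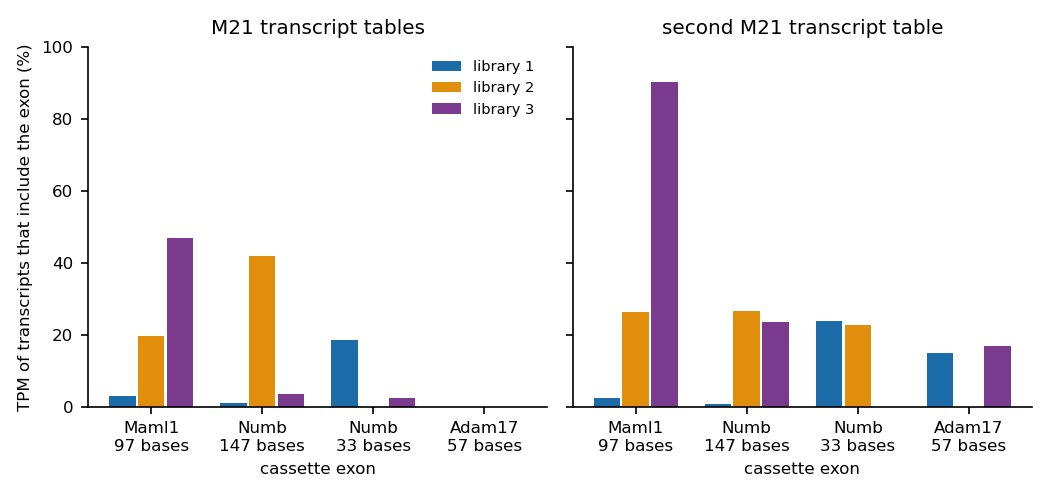
Inclusion of 4 cassette exons of Maml1, Numb and Adam17, as the share of TPM of transcripts that include the exon among those that include or skip it, in each library. The Maml1 exon is highest in library 3 in both tables (46.8% and 90.3%), and the 57-base exon of Adam17 is at 0 in every library of the first table only.

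Between libraries, 6 of the 9 Notch genes were higher in library 3 than in both others and none was lower than both. Among protein-coding genes tested, 53.4% were higher and 18.5% were lower, so the count of higher genes was near the background. The log2 ratio of TPM + 0.1, library 3 over the mean of libraries 1 and 2, had a median of 0.32 over the 9 genes, beside 0.25 over protein-coding genes tested. The largest ratio was that of Notch1, at 0.80, and the only one under 0 was that of Rbpj, at -0.19. Over the other 64 pathway genes the median was 0.33.

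Markers of several other blood cells moved more between the same libraries. The NK cell list had a median log2 ratio of 1.71, with all 8 genes higher in library 3. The 7 platelet markers, with Ppbp, Pf4 and Itga2b first on the list, summed to 15.5, 11.0 and 97.0 TPM, with a median ratio of 3.23. The 7 erythroid markers, 4 globin genes among them, summed to 3534, 3327 and 262 TPM, with a median ratio of -3.20 and Klf1 at 0 in every library. The 8 neutrophil markers summed to 142, 128 and 9.62 TPM, with a median ratio of -1.64 and Ly6g and Camp at 0 in every library. Most of that sum was Retnlg, at 124, 114 and 0 TPM, while S100a8 stood at 5.53, 1.42 and 0.35 TPM. The 7 basophil, eosinophil and mast cell markers, with Ccr3, Ms4a2 and Cpa3 first on the list and Epx at 0 in every library, summed to 25.4, 26.2 and 4.22 TPM, with a median ratio of -1.74. The 6 dendritic cell markers, with Flt3, Zbtb46 and Xcr1 first, summed to 7.51, 6.22 and 3.29 TPM, with a median ratio of -0.89. Most of that sum was Cd209a, at 3.19, 2.89 and 1.3 TPM, and Ccr7, at 3.27, 2.74 and 1.37 TPM. Flt3 and Zbtb46 were called below 1 TPM (adjusted p = 0.0172 and 0.0341, edgeR), and Xcr1 stood at 0.02, 0.02 and 0.05 TPM. The ratio was -0.7 for Flt3, but 0.17 for Zbtb46 and 0.32 for Xcr1. The 8 T cell markers, with Cd3e, Cd3d and Cd3g first, summed to 49.0 TPM in library 3. The sum was 20.9 TPM or less in libraries 1 and 2. Of the 8 markers, 7 were higher in library 3 (median ratio 0.87), while Cd4 was lower, with a ratio of -0.4. Most of the T cell sum was Lck, at 17.5, 11.5 and 42.5 TPM in libraries 1, 2 and 3. The ratio of Lck was 1.54, beside the median of 1.71 for the NK cell list. Whether the Lck level came from T cells was not tested. Cd3e stood at 0.08, 0.03 and 0.16 TPM and Cd3g at 1.49, 2.11 and 3.61 TPM. The part of these other blood cells in the levels of Notch1, Lfng and the other pathway genes was not tested. In bulk RNA, fewer cells of a type and less RNA per cell cannot be told apart.

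**Figure D5:**
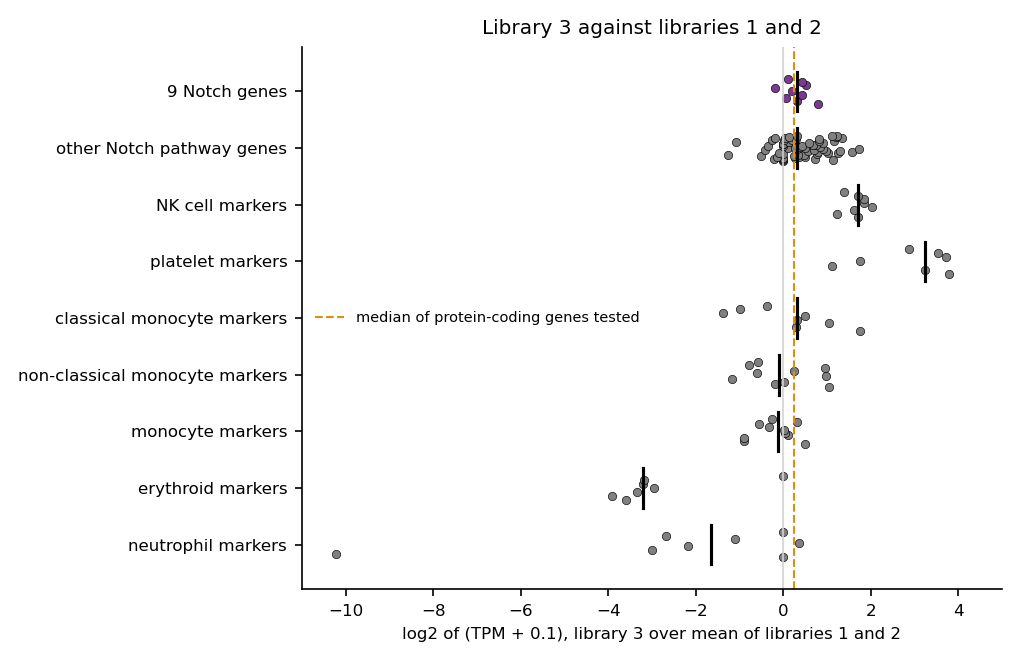
The log2 ratio of TPM + 0.1 in library 3 over the mean of libraries 1 and 2, for the 9 Notch genes, 64 further pathway genes and lists of cell type markers. Points are genes, black bars list medians, and the dashed line the median of protein-coding genes tested (0.25). The Notch genes lie around the dashed line, while NK cell and platelet markers lie to its right and erythroid markers to its left.

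The protein-coding genes with the most similar values were found for each Notch gene by the Euclidean distance of log2(TPM + 0.1) over the 3 libraries, which measures likeness of level and of profile together. With 3 libraries many genes come close by level alone, and 66 genes lay within a distance of 0.25 of Notch2. The nearest to Notch2 were Was, at a distance of 0.028, and Herc1, at 0.032. Was encodes the actin regulator mutated in Wiskott-Aldrich syndrome, and it stood at 14.1, 12.1 and 16.1 TPM. Nearest to Hes1 were Cse1l (0.1) and Cryzl1 (0.121), and nearest to Rbpj were Ythdf1 (0.115) and Cnih1 (0.156). Rbpj had the fewest close genes, with 10 within 0.25. Nearest to Notch1 were Zdhhc21 and Pan2, to Adam10 Babam1 and Shc1, to Adam17 Uba2 and Nub1, to Maml1 Mrpl10 and Mthfsd, and to Numb Styx and Ift52. Nuak1 and Pdilt had the same TPM values as Notch4 in each library.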

How the data were processed

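Per the labels' protocols, total RNA (100 ng) went into ScriptSeq libraries after removal of ribosomal RNA. The authors quantified each library on mm10 with GENCODE M21 and M4. Their deposited gene and transcript tables give expected counts and TPM, and a second deposited M21 transcript table gives estimated counts and TPM. The sources used here do not give the quantification programs or the strand setting. Whether reads of a gene were separated from those of an overlapping gene on the other strand is therefore not known.

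Gene identifiers were paired with symbols through the second transcript table. The expected counts, rounded to integers, were fitted with edgeR 4.0.16 in R 4.3.3 (glmQLFit, intercept only) for every gene whose summed count reached 10. The log of the counts per 1 TPM served as offset, and F was computed from the deviances against 1 TPM, with Benjamini-Hochberg adjustment and a threshold of 0.05. The fit was also run on counts simulated with a common coefficient of variation of 0.788 for all genes. The median over protein-coding genes tested was 33.7% by TPM, so the simulated spread was unlike that of the data. The outcome of that run is not reported here. Rows that name no gene held at most 0.000571% of counts and stayed out of tests. Alternatives used limma 3.58.1, DESeq2 1.42.0, TMM scaling, the M4 tables, other levels and filters, and each library left out. Pseudocounts were 0.1 and 1. Near-identical transcripts were sought with BLAST+ 2.17.0 at 95% identity or more over at least 100 bases.

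Genes named beyond the 9 were, for each role, the gene with the highest mean TPM, each called below 1 TPM and each with 0 counts in all libraries, up to 3 markers from the head of a cell list and markers at 0 counts, and the 2 nearest protein-coding genes of each Notch gene. Close copies and overlapping genes were named wherever found to bear on a level. Lck, Cd209a and Ccr7 were also named, as genes that held most of a marker sum. Vcan was named as a marker called below 1 TPM, and Cd4 as the T cell marker lower in library 3. The Notch genes, lists and tests were chosen with earlier results of these data known. A further marker list is not reported here.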

Additional observations from a re-analysis of the deposited data

How the results depend on the processing

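Of the 9 Notch genes, Notch2, Adam10, Adam17, Rbpj and Hes1 were called above 1 TPM under all 12 alternatives run, and Numb under all except a level of 2 TPM (adjusted p = 0.0657, edgeR). Against 2 TPM, Notch1 lay at -0.31 and Maml1 at -0.44 on the log2 scale, in place of 0.69 and 0.56 above 1 TPM, which follows from the higher level. Notch1 also lost its call with limma (adjusted p = 0.143 with a pseudocount of 0.1 and 0.182 with 1). The number of Notch genes above 1 TPM ranged between 5 and 8, and between 6 and 7 with a library left out. The number below was 1, in each case Notch4, with the M4 tables, a level of 2 TPM, a summed count of 1 or more, limma with either pseudocount, DESeq2 and TMM, and 0 or 1 with a library left out.

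Over all genes, calls above ranged from 7240 to 7559 with a library left out, and came to 12092 on the scale of protein-coding genes alone. Calls below depended more on the fixed level, the scale and the tool. They were 1 on the scale of protein-coding genes alone, 176 at 0.5 TPM, 3398 at 2 TPM, 6290 and 6737 with limma at pseudocounts of 0.1 and 1, 4114 with DESeq2, and 256 to 1086 with a library left out, against 1124. Calls below among the 64 other pathway genes were 0, 1, 11, 9, 11 and 8 under those settings in the same order and 1 to 4 with a library left out, against 3. At 0.5 TPM, at 2 TPM and on the scale of protein-coding genes alone, the same fit was set against another level. The cause of the differences between tools and between libraries left out was not tested.

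In the second transcript table, Notch2 minus Notch1 was 1.44, Notch1 minus Notch4 was 6.11 and Notch2 minus Notch4 was 7.56 on the log2 scale. With a pseudocount of 1 they were 2.55, 1.32 and 3.87. In that table the differences of Numb minus Notch1 (-0.59) and of Adam17 minus Hes1 (-0.15) had the opposite sign to the gene tables. No paired analysis was possible because the series holds 1 group. Counts of 0 to 33 per library limit what can be said of Notch4, and 3 libraries cannot give an exact p under 0.25.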
